A study of Mus musculus with 48 samples.

Results

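These are the joints that HTGTS-JoinT-seq listed back at the Jκ1 bait break itself: every junction whose prey lies on chromosome 6 from 70672056 to 70672793 (mm9), a window of 500 bases before the Jκ1 coding segment, the 38 bases of the segment (Igkj1, ENSMUSG00000076604.1, plus strand, 70672556 to 70672593) and 200 bases after it. The choice was by position alone and used no count. The window held 457779 of the 8250887 junctions in 48 libraries. A further 7248929 junctions lay in the Vκ region upstream (chr6:67505630-70654171).

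HTGTS-JoinT-seq reads outward from a fixed bait end and records where in the genome that end was joined. The libraries came from vAbl cells, mouse progenitor B cells transformed by the Abelson kinase, of 2 genotypes, WT and Ku70-/-, and were read from 2 baits, the Jκ1 coding end (CE bait) and the Jκ1 signal end (SE bait). Cells were either cycling or arrested for 96 h with the Abl kinase inhibitor STI-571 at 3 μM, and the arrested cells also received DMSO, L67 at 5 μM or L82-G17 at 25 μM on the day STI-571 was added. L67 inhibits DNA ligases I and III and L82-G17 is described as selective for DNA ligase I. Each of the 16 combinations of genotype, treatment and bait had 3 libraries. Each genotype was 1 cell line, so genotype and line cannot be told apart. Libraries are numbered within a group by the order of their accessions, and a number pairs nothing across groups or baits. The labels name no separate cultures for the 3 libraries of a group, so p-values measure the spread between these libraries. Figure legends of the study speak of biological repeats for the experiments they show, which do not include L67 or L82-G17. Every library had been taken down to 500000 read pairs, so counts are given per 500000 read pairs. Copies of a junction had been kept, so that a count is of read pairs and not of cells.

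RAG1/2 cuts between a recombination signal and the coding segment beside it and leaves a blunt signal end and a coding end sealed as a hairpin. In classical nonhomologous end joining (NHEJ), Ku70 and its partner Ku80 bind the ends, Artemis opens the hairpin, and the coding ends of Vκ and Jκ are joined after small losses or additions. Opening a hairpin off its tip leaves a short palindromic overhang, which can stay in the joint as added bases. Without Ku, ends are joined by alternative end joining (A-EJ), which is known for larger deletions. The study describes A-EJ in arrested cells as giving mostly direct joints, and A-EJ in cycling cells as relying more on microhomology (MH). A joint of the Jκ1 signal end with its own Jκ1 coding end, which restores the order of the uncut chromosome, is an open-and-shut joint. Both baits can see the same open-and-shut joint, one from each side.

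The break lies between base 70672555, the last base of the signal, and base 70672556, the first of the coding segment. The sequences below are those on which the results turn, all on the plus strand of mm9. The first is the uncut chromosome (chr6:70672541-70672570) with the heptamer of the signal in capitals. In the others, which were cut from the most frequent deposited read of each joint, capitals mark the bases from the coding end, shared bases included, except in the AC joint, where they mark the inserted bases.
uncut: agtactacCACTGTGgtggacgttcggtgg
WT, TG joint, base 70672553 to base 70672557: gagtactaccacTGGACGTTCGGTGGAG
WT, GTG joint, base 70672555 to base 70672556: gtactaccactGTGGACGTTCGGTGGAG
WT, AC joint, base 70672555 to base 70672556: gtactaccactgtgACgtggacgttcggtg
WT, direct joint, base 70672555 to base 70672558: gtactaccactgtgGGACGTTCGGTGGA
Ku70-/-, GTGGAG joint, base 70672542 to base 70672567: gccagacaGTGGAGGCACCAAGCTGGAA
Ku70-/-, direct joint, base 70672553 to base 70672561: gagtactaccactgCGTTCGGTGGAGGC
Ku70-/-, far joint, base 70672504 to base 70672598: ctgctctgttcctcGTAGAATCCAAAGT
The TG and GTG joints each keep 1 copy of bases that both ends carry. The AC joint has both ends whole with 2 bases between them, the reverse complement of the first 2 coding bases.

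Libraries differed in depth. They held 8294 to 32108 junctions in cycling cells and 116039 to 385847 in arrested cells. Junctions in the Vκ region, the V-J joints that STI-571 brings on in these cells, numbered 20210 to 29432 in cycling and 173098 to 362249 in arrested WT libraries of the CE bait, and 6915 to 8973 and 96095 to 129388 in Ku70-/-. The Ku70 gene itself is not read by this assay. A pair of libraries stood apart in what follows, library 1 of Ku70-/- with DMSO in each bait. They held 305 and 245 distinct joints (CE and SE), where libraries 2 and 3 of the same groups held 1582 and 1466 (CE) and 1473 and 1361 (SE). Rows count as the same joint here when they match in the prey's base and strand, in the bait's last base and in how far both overlap or stand apart on the read. Single joints made up as much as 11.5% and 17.4% of their rows, against 1.56% to 2.48% in the other 4. The make-up they shared with the other 4 Ku70-/- DMSO libraries (the summed smaller share of each joint) was 11.8% to 14.6%, where those others shared 45.4% to 64.9% among themselves, and the 2 of them shared 5.55% with each other. Of the CE bait, only the other libraries of this group appear among those the study lists by name. Several differences are given with and without these libraries. Some Ku70-/- ranges below, such as those of direct joints, have a lowest or highest value that comes from them.

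Ku70-/- cells held far more joints back at the Jκ1 break than WT cells, from either bait and in every treatment. From the CE bait, arrested WT libraries held 645, 688 and 516 joints with DMSO, 647, 599 and 590 with L67 and 496, 353 and 387 with L82-G17. The Ku70-/- libraries held 23130, 27080 and 28867 with DMSO, 29534, 28765 and 27917 with L67 and 15059, 14420 and 18018 with L82-G17. The lowest Ku70-/- library thus lay above the highest WT library in each treatment. Over the 9 arrested libraries of each genotype the difference was 5.42 on the log2 scale, 42.7-fold (two-sided exact permutation within treatment, p = 0.00025, the smallest that 8000 arrangements can give, adjusted p = 0.000636 over 28 tests). These counts keep copies and miss joints that restore the uncut sequence perfectly, in either genotype. When each distinct joint was counted once, the arrested libraries held 34 to 55 in WT and 305 to 1692 in Ku70-/-.

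The SE bait gave the same order. Arrested WT libraries held 890, 673 and 642 joints with DMSO, 732, 1006 and 908 with L67 and 622, 632 and 922 with L82-G17. Those of Ku70-/- held 22297, 27601 and 26589, then 28509, 27598 and 29207, then 16988, 15865 and 17106. The groups did not overlap and differed by 4.90 on the log2 scale, 29.8-fold (exact permutation, adjusted p = 0.000636). Without Ku70-/- DMSO library 1 the differences were 5.45 (CE) and 4.93 (SE), with the same adjusted p. When each distinct joint was counted once, arrested libraries of the SE bait held 42 to 87 in WT and 245 to 1584 in Ku70-/-. In cycling cells the CE bait gave 448, 396 and 343 joints in WT and 3412, 3105 and 3180 in Ku70-/-, 8.21-fold apart and not overlapping (exact permutation of 3 against 3, p = 0.1, the smallest that design can give). The SE bait gave 432, 674 and 619 in cycling WT and 3440, 2432 and 2800 in cycling Ku70-/- libraries.

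**Figure D1:**
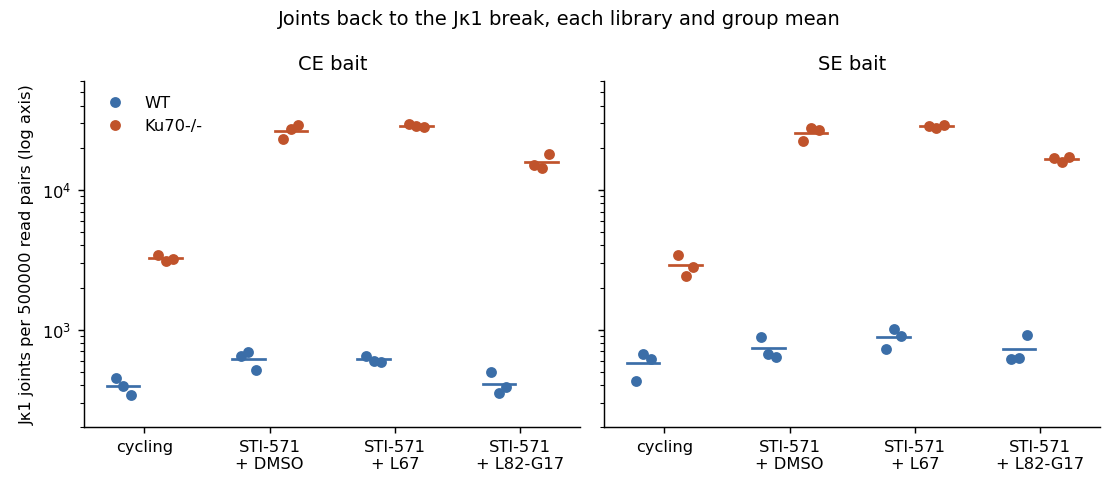
Joints listed back at the Jκ1 break per 500000 read pairs (log axis) in each library, by treatment, for the CE bait (left) and the SE bait (right). Points are libraries and short lines group means. All Ku70-/- libraries lie above all WT libraries of the same treatment, and the Ku70-/- libraries stand at 2432 to 3440 joints in cycling cells and at 14420 or more with STI-571.

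The joints at the break took a small share of all junctions in arrested WT cells and a large one in Ku70-/- cells. From the CE bait the share was 0.139% at the lowest, 0.181% at the median and 0.257% at the highest of 9 arrested WT libraries, and 11.0%, 17.04% and 19.2% in Ku70-/-. The SE bait gave 0.189%, 0.301% and 0.690% in WT and 12.6%, 14.2% and 15.6% in Ku70-/-. No Ku70-/- library came within the range of WT. Set against the V-J joints of the same library, joints at the break were rare in WT and frequent in Ku70-/- cells. Their number per Vκ joint was 0.00149, 0.00194 and 0.00276 in WT and 0.136, 0.229 and 0.260 in Ku70-/- libraries of the CE bait (lowest, median and highest). For the SE bait the ratio was 0.00197, 0.00315 and 0.00734 in WT and 0.157, 0.184 and 0.205 in Ku70-/-. The ratio differed 105-fold for the CE bait and 55.8-fold for the SE bait (exact permutation, adjusted p = 0.000636 for both).

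Arrested Ku70-/- cells held more joints at the break than cycling ones, and in both genotypes there were fewer for each V-J joint. With DMSO against cycling, the CE bait gave 1.56 times as many in WT and 8.13 times as many in Ku70-/-, and neither pair of groups overlapped. The SE bait gave 1.29-fold in WT, where DMSO libraries 2 and 3 (673 and 642) lay within the cycling range, and 8.87-fold in Ku70-/-. The WT SE rows include reads that run into Jκ2 and are not joints to Jκ1 (below). Without these, WT DMSO libraries held 606, 518 and 526 joints and cycling ones 432, 674 and 612, a log2 difference of -0.04. The groups overlapped, so that no rise with arrest was seen in WT from this bait. Rows of unchanged length (below), more numerous in cycling than in DMSO libraries of WT, were still counted here. Over both genotypes the rise was 3.56-fold for the CE bait (exact permutation within genotype, adjusted p = 0.00933) and 3.38-fold for the SE bait (adjusted p = 0.0262). In the same exact permutation test the SE rise lost its call without WT cycling library 1 (adjusted p = 0.0525) or without WT DMSO library 1 (adjusted p = 0.0576), and without the reads that run into Jκ2 or elsewhere (1.56 on the log2 scale, adjusted p = 0.0933). It also lost its call with each distinct joint counted once. In both baits the call ended with only rows that the authors did not add. Per junction of the library the rise turned to a fall that passed the threshold (values in the last section). The rise in Ku70-/- was 5.22 times that in WT from the CE bait and 6.89 times from the SE bait, and the test of this difference gave adjusted p of 0.133 and 0.126 (exact permutation within genotype). Such a permutation moves the effect of arrest along with the difference, so that a large effect widens the permuted values. Per V-J joint the direction was the opposite: with arrest the ratio stood at 0.112 of its cycling level in WT and 0.596 of it in Ku70-/- from the CE bait, and at 0.0796 and 0.251 from the SE bait, without overlap of groups (exact permutation of 3 against 3, p = 0.1 each).

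L67 at 5 μM and L82-G17 at 25 μM were given at different doses, so each is set only against DMSO. With L67 the number of joints was 1.00 times that with DMSO in WT and 1.09 times in Ku70-/- from the CE bait, and 1.20 and 1.12 times from the SE bait. The groups overlapped in all 4 cases. Over both genotypes the ratio was 1.05 (CE, adjusted p = 0.490) and 1.16 (SE, adjusted p = 0.0933; exact permutation within genotype), which does not show that L67 and DMSO act alike.

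With L82-G17 the CE bait gave 0.666 times as many joints as with DMSO in WT and 0.600 times as many in Ku70-/-, and the groups did not overlap in either genotype. Over both, the ratio was 0.633 (exact permutation within genotype, adjusted p = 0.00933) a log2 difference of -0.66, and -0.71 without Ku70-/- DMSO library 1. This call ended per junction of the library (-0.13, exact permutation, adjusted p = 0.528), and the difference turned to 0.20 with each distinct joint counted once (adjusted p = 0.890) and to 0.58 with rows that the authors did not add alone (adjusted p = 0.560). From the SE bait the ratio was 0.980 in WT, where the groups overlapped, and 0.656 in Ku70-/-, where they did not, with 0.802 over both (exact permutation, adjusted p = 0.125). Without WT L82-G17 library 3 the SE difference over both genotypes passed the threshold at -0.41 on the log2 scale (exact permutation, adjusted p = 0.0329). Whether the genotypes differed in their response was tested for each bait by exact permutation within genotype, with adjusted p = 0.775 (CE) and 0.152 (SE). The difference of Ku70-/- from WT passed the threshold in 2 alternatives, per junction of the library for the CE bait (-0.94 on the log2 scale, exact permutation, adjusted p = 0.0175) and without the reads that run into Jκ2 or elsewhere for the SE bait (-0.90, adjusted p = 0.0175). The SE value still counts rows of unchanged length (below), which in WT were more numerous with L82-G17 than with DMSO. Per V-J joint, L82-G17 gave 1.28 times the DMSO ratio in WT and 0.601 times in Ku70-/- from the CE bait, and 2.53 and 1.06 times from the SE bait, so in WT the number of joints at the break was not lower when set against V-J joints.

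A prey can lie on either side of the break and be read away from it or towards it. Almost all joints were of 1 kind, on the other side of the break and read away from it, which restores germline order (an open-and-shut joint). They were 4847 of 4921 joints in arrested WT and 212388 of 212790 in arrested Ku70-/- libraries of the CE bait, where they lie on the minus strand before the break, and 6994 of 7027 and 211408 of 211760 of the SE bait, where they lie on the plus strand within and beyond Jκ1. The mean share was 98.5% in WT and 99.8% in Ku70-/- for the CE bait (exact permutation, adjusted p = 0.00233) and 99.5% and 99.8% for the SE bait (adjusted p = 0.147).

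The remaining joints were few. Joints to a second end of the same kind, which need the break on 2 chromosome copies or sister strands, numbered 1 in arrested WT and 169 (0.0794% of 212790) in arrested Ku70-/- libraries of the CE bait, and 13 and 122 of the SE bait. Cycling WT libraries of the CE bait held 0 in 1187, which allows a share of up to 0.253% (a limit of 3 counts, for counting error only). Prey on the other side but read towards the break numbered 3 and 147 (CE), and 0 in 7027, which allows up to 0.0427%, and 143 (SE). Prey on the bait's own side and read towards the break numbered 70 and 86 (CE) and 20 and 87 (SE). The 70 in WT held most of what set the 2 genotypes apart in the CE bait: with joints read towards the break left out, the difference in germline order turned from 1.27 to -0.0679 percentage points (exact permutation, adjusted p = 0.0535).

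WT ends were joined close to where RAG1/2 cuts, and Ku70-/- ends had lost bases on both sides. Among arrested CE bait libraries, the prey end lay within 10 bp of the break in 91.5%, 94.1% and 98.5% of WT joints (lowest, median and highest of 9 libraries) and in 28.2%, 40.7% and 43.6% of Ku70-/- joints. Among SE bait libraries the shares were 55.3%, 75.5% and 86.1% in WT and 27.2%, 31.3% and 61.3% in Ku70-/-. The highest Ku70-/- value was that of DMSO library 1, and the next DMSO library stood at 32.9%. The lowest WT value was that of L67 library 2, in which 43.6% of rows run into Jκ2. Without such rows the lowest WT library stood at 83.0% and Ku70-/- DMSO library 1 at 61.02%, so that the SE ranges, which overlap as listed, did not overlap. The mean difference was -56.7 percentage points (CE) and -39.8 (SE), or -43.1 for the SE bait without Ku70-/- DMSO library 1 and -61.02 without the reads that run into Jκ2 or elsewhere (exact permutation, adjusted p = 0.000636 for each).

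Each end was counted separately, with shared bases credited to both ends. The signal end had lost a median of 0.667 bases in WT and 13.2 in Ku70-/- joints of the CE bait (mean of library medians over 9 arrested libraries), and the coding end 0.889 and 14.4. The SE bait gave 1.44 and 13 bases for the signal end and 1.56 and 15.3 for the coding end. Without the reads that run into Jκ2 or elsewhere, the WT medians of the SE coding end were 0 or 1 in all 9 arrested libraries. Neither end was thus spared in Ku70-/- cells, and the losses at both were of similar size from either bait. The net deletion, both losses plus shared bases, had medians of 3, 3 and 5 bp (lowest, median and highest library) in WT and 25, 28 and 40 bp in Ku70-/- for the CE bait, and 3, 5 and 5 bp and 18, 31 and 40 bp for the SE bait. All 6 of these differences had p = 0.00025 (exact permutation, adjusted p = 0.00025 over 14 tests added after the values were seen).

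Whole ends were common in WT and scarce in Ku70-/- joints. Shared bases are credited to both ends, so an end counted as whole may still lack MH bases, as in the GTG joint. In joints with germline order the signal end was whole in 53.4% of WT and 6.73% of Ku70-/- joints of the CE bait (42.5% and 6.16% of the SE bait), and the coding end in 46.1% and 2.75% (33.6% and 3.43%). Groups did not overlap (exact permutation, adjusted p = 0.00025 for each). Without the reads that run into Jκ2 or elsewhere, the SE shares were 53.5% and 6.19% for the signal end and 44.1% and 3.51% for the coding end, again without overlap. Fewer than 3 bases had gone from each end in 52.1%, 75.3% and 81.9% of arrested WT joints of the CE bait (lowest, median, highest library) and in 0.121%, 0.660% and 1.03% of Ku70-/- joints. The bait side had lost at most 61 bp (CE) and 54 bp (SE) in the deposited rows, with at least 23 and 20 aligned bait bases, while the loss on the prey side reached 496 and 236 bp. The window, 500 bases before the Jκ1 segment and 200 after it, bounds the losses on the prey side. Larger losses from a bait end cannot be told apart from their absence. A joint that restores the uncut sequence perfectly cannot be told from an uncut chromosome, and 0 rows of that kind were listed.

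**Figure D2:**
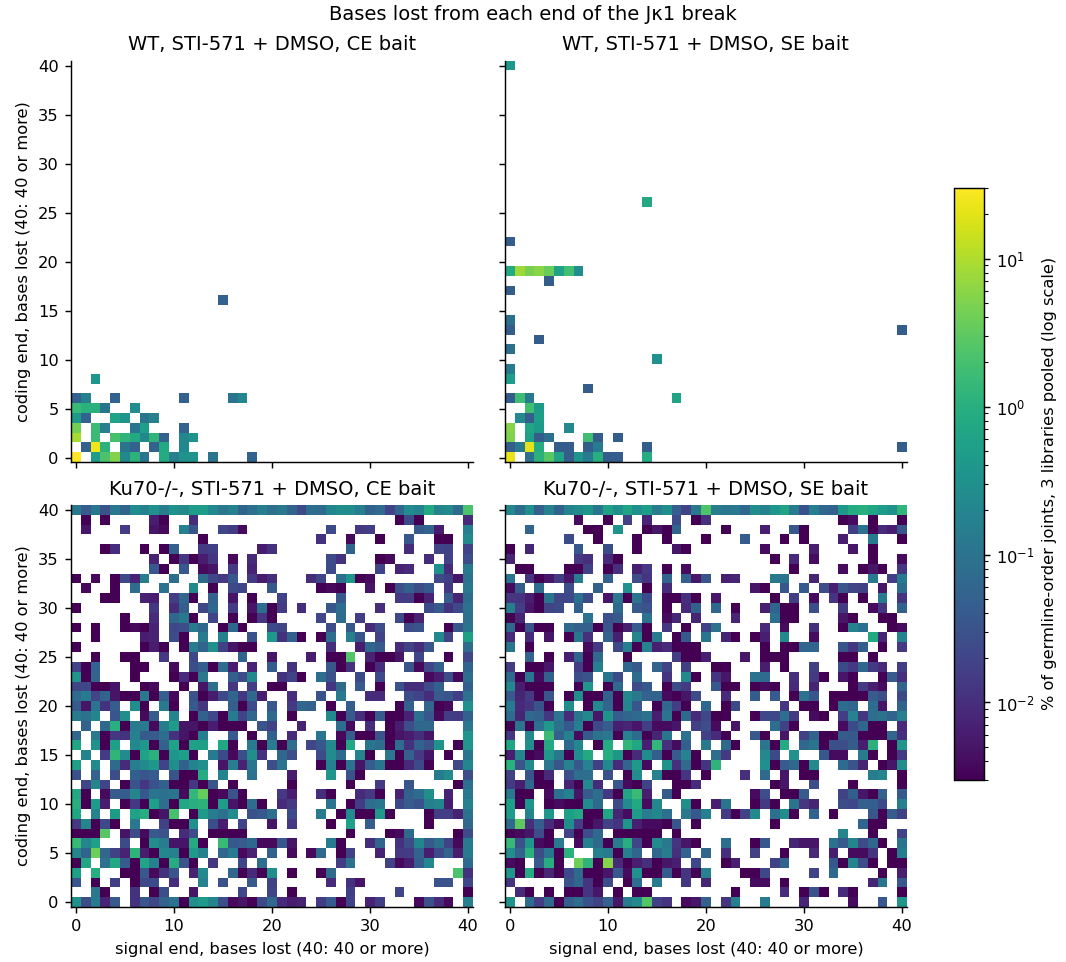
Bases lost from the signal end (x axis) and from the coding end (y axis) in germline-order joints of the DMSO libraries, 3 libraries pooled, with color giving the percentage of joints on a log scale. WT joints (top) gather at the corner where both ends are nearly whole, Ku70-/- joints (bottom) spread over losses of 40 bp or more from either end, and the row of WT SE joints at 19 coding bases is the set of reads that run into Jκ2.

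The structure of the joints differed as well. A joint was called MH where bait and prey share bases on the read, insertion where bases of neither lie between them, and direct where neither holds. Of CE bait joints in arrested libraries, direct joints made up 15.9%, 18.2% and 32.6% in WT (lowest, median, highest) and 42.1%, 51.1% and 55.3% in Ku70-/-. For the SE bait they made up 6.56%, 12.9% and 15.9% in WT and 37.2%, 47.3% and 51.0% in Ku70-/-. The groups did not overlap and the means differed by 28.6 (CE) and 33.9 (SE) percentage points (exact permutation, adjusted p = 0.000636 for both). When each distinct joint was counted once, the CE shares were 20.6% to 31.25% in WT and 29.5% to 48.1% in Ku70-/-, overlapping through DMSO library 1. The SE shares were then 7.46% to 22.2% and 23.7% to 40.6%. MH of 1 bp was also more frequent in Ku70-/- joints, at 27.2% against 6.74% (CE) and 26.0% against 7.25% (SE; exact permutation, adjusted p = 0.00025 for both). When reads that run into Jκ2 (below) or elsewhere were left out, direct joints of the SE bait made up 11.4% to 22.4% in WT and 37.6% to 51.8% in Ku70-/-. MH of 1 bp then stood at 4.62% to 17.4% and 15.5% to 31.3%, overlapping through Ku70-/- DMSO library 1.

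Longer MH went the other way in the CE bait. MH of more than 1 bp was found in 26.0%, 39.1% and 47.1% of WT joints and in 13.8%, 17.7% and 22.6% of Ku70-/- joints of the CE bait, lower in Ku70-/- by 19.1 percentage points (exact permutation, adjusted p = 0.000636). From the SE bait the shares were 17.7%, 35.2% and 51.3% in WT and 17.2%, 21.1% and 44.7% in Ku70-/-. The value of 44.7% was that of DMSO library 1. The SE difference was -10.4 percentage points (exact permutation, adjusted p = 0.0535), and -13.3 (adjusted p = 0.0055) without that library. It also passed the threshold without WT L67 library 3 (-11.6, adjusted p = 0.0268) or WT L82-G17 library 1 (-12.5, adjusted p = 0.0247; exact permutation for all). In WT the MH was nearly all of 2 or 3 bp. Overlaps of 4 bp or more were 0% to 1.03% of WT and 4.31% to 7.95% of Ku70-/- joints of the CE bait, and 0% to 2.67% and 4.35% to 7.82% of the SE bait. The difference in MH over 1 bp rested on repeated joints: with each distinct joint counted once it turned to 4.41 percentage points higher in Ku70-/- for the CE bait (adjusted p = 0.0098) and 3.74 higher for the SE bait (adjusted p = 0.0055; exact permutation).

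Insertions were more frequent in WT joints. They were found in 17.9%, 35.8% and 42.9% of arrested WT joints and in 3.23%, 3.65% and 4.67% of Ku70-/- joints of the CE bait. From the SE bait they were found in 31.8%, 48.6% and 62.5% of WT and 1.84%, 5.61% and 7.42% of Ku70-/- joints. The groups did not overlap and differed by -29.9 (CE) and -42.3 (SE) percentage points (exact permutation, adjusted p = 0.000636 for both). The SE value of WT holds rows that are not joints to Jκ1 (reads that run into Jκ2, below), and without them the difference was -28.3 percentage points (exact permutation, adjusted p = 0.000636).

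**Figure D3:**
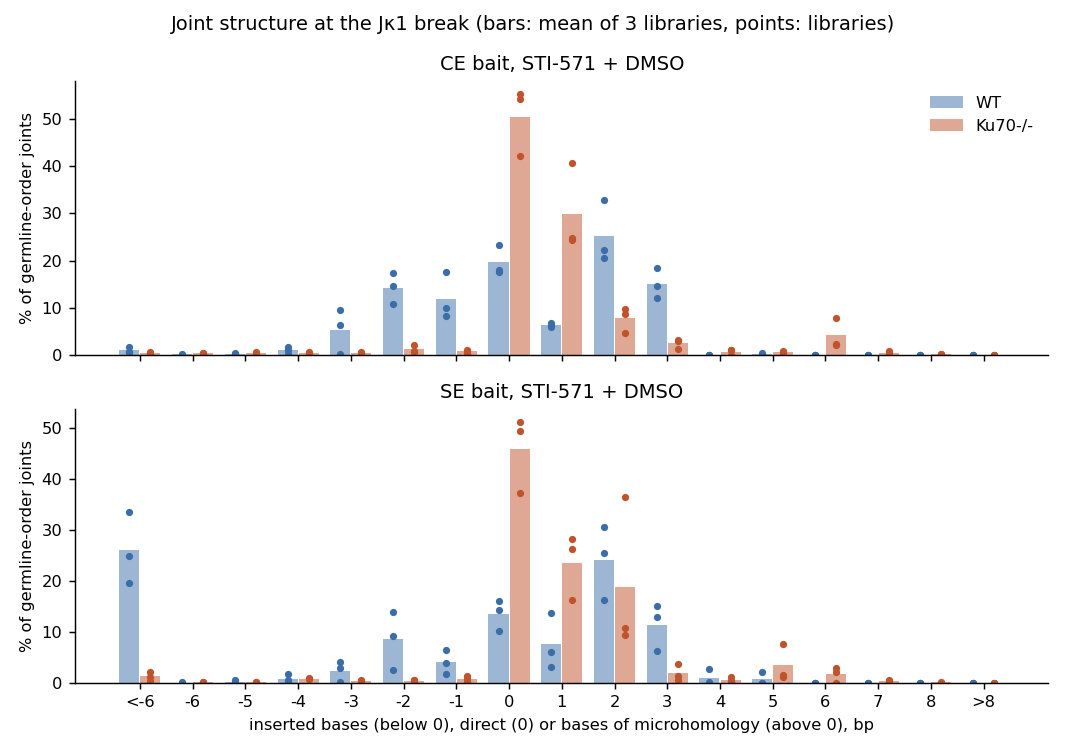
Share of germline-order joints (y axis, %) by inserted bases (below 0), direct joining (0) or bases of MH (above 0) with DMSO, for the CE bait (top) and the SE bait (bottom). Bars are means of 3 libraries and points the libraries. WT bars peak at 2 bp of MH and at insertions of 2 bp, Ku70-/- bars at 0 and 1 bp, and the WT bar at insertions over 6 bp in the SE panel holds the reads that run into Jκ2.

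A few joints made up most of the WT rows. Over all 24 WT libraries there were 414 distinct germline-order joints, of which 231 were found in 1 library and 71 from both baits. The 5 found in every library held 50.3% of the rows. They were the TG joint, the GTG joint, joints with 2 bases inserted between whole ends, mostly AC, the direct joint that lacks 2 coding bases, and a joint of whole ends with 1 G of overlap. All 5 lack at most 5 bases in all.

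The TG joint led all 6 WT libraries with DMSO. It gave 127, 149 and 156 rows from the CE bait (19.7%, 21.7% and 30.2%) and 144, 154 and 157 from the SE bait (16.2%, 22.9% and 24.5%). In cycling WT cells it gave 26, 15 and 17 rows (CE) and 15, 9 and 23 (SE), below every DMSO library. With L67 it gave 108, 132 and 152 rows (CE) and 145, 107 and 76 (SE), and with L82-G17 89, 19 and 73 (CE) and 55, 122 and 121 (SE). The joint was also found in 18 of 24 Ku70-/- libraries.

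The other recurrent WT joints varied in their own ways. The GTG joint gave 118, 82 and 74 rows with DMSO and 108, 117 and 76 with L82-G17 from the CE bait, where it led all 3 L82-G17 libraries. Joints with 2 bases between whole ends gave 61, 89 and 52 rows with DMSO (CE) and 81, 15 and 77 (SE), and the printed AC sequence was that of 121 of the 202 CE reads and 164 of the 173 SE reads. The direct joint lacking 2 coding bases gave 66, 59 and 53 rows in cycling and 16, 53 and 22 in DMSO libraries of the CE bait, and 101, 153 and 86 against 26, 17 and 34 of the SE bait. The joint with 1 G of overlap, which differs from the uncut sequence by 1 lost base, gave 55, 68 and 48 rows in cycling and 5, 2 and 1 in DMSO libraries (CE), and 52, 58 and 86 against 1, 1 and 9 (SE). It was found in 23 of 24 Ku70-/- libraries. For this joint the cycling and DMSO groups did not overlap in either bait. Whether its rows are joints or read errors of 1 base was not tested.

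The position with the highest mean count in WT with DMSO was the last base of the signal from the CE bait and the first coding base from the SE bait. From the CE bait with DMSO, base 70672555 held 291, 366 and 208 rows (45.1%, 53.2% and 40.3%), base 70672553 held 152, 192 and 182, and base 70672551 held 92, 40 and 14. From the SE bait, base 70672556, the first of the coding segment, held 285, 165 and 193 rows and base 70672557 held 147, 169 and 171. Base 70672575 held 286, 155 and 116 rows, nearly all of them reads that run into Jκ2.

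Ku70-/- rows were spread over more joints, from many more rows in all. Numbers of distinct joints were not compared between genotypes at equal numbers of rows. There were 7981 distinct germline-order joints over 24 libraries, 4573 of them in 1 library and 2020 seen from both baits. The 8 found in every library held 6.63% of the rows. The GTGGAG joint, with 6 bp of MH and 30 bp lost in all, led DMSO libraries 2 and 3 of both baits with 423 and 571 rows (1.56% and 1.98%, CE) and 544 and 660 rows (1.97% and 2.48%, SE). In DMSO library 1 it gave 1735 rows (7.50%) from the CE bait and 2 from the SE bait. It also led all 3 L82-G17 libraries of the CE bait, with 214, 173 and 291 rows, and all 3 L67 libraries of the SE bait, with 480, 538 and 496. In the opposite baits it led L67 library 1 (CE) and L82-G17 libraries 1 and 3 (SE), and other joints led the rest of those groups. WT held it in 2 of 24 libraries.

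The joints with the highest mean counts in Ku70-/- with DMSO rested on library 1. The direct joint of base 70672553 to base 70672561 gave 2658, 231 and 180 rows from the CE bait (11.5%, 0.853% and 0.624%). The joint of base 70672545 to base 70672560, with 2 bp of MH, gave 17.4%, 0.877% and 0.444% of the rows from the SE bait. The joint of base 70672552 to base 70672563 gave 9.19%, 0.0258% and 0.00693% (CE), that of base 70672548 to base 70672560 gave 11.5%, 0.960% and 0.696% (SE), and that of base 70672554 to base 70672564 gave 9.74%, 0.293% and 0.361% (SE). In each case library 1 was many times above the other libraries. By prey position alone the spread was smaller: base 70672542 held 2422, 2219 and 2493 CE rows, base 70672555 929, 2250 and 2538, and base 70672572 2220, 2568 and 2336 SE rows. Base 70672553 held 3156, 1402 and 1591 CE rows and base 70672560 held 7473, 976 and 902 SE rows.

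The far joint, a direct joint of base 70672504 to base 70672598 that lacks 51 bases of the signal side and 42 of the coding side, the whole Jκ1 segment among them, led cycling Ku70-/- libraries 1 and 2 of the CE bait. It gave 203, 167 and 145 rows (5.95%, 5.38% and 4.56%) in cycling cells, 0, 122 and 131 with DMSO, 166, 131 and 170 with L67 and 117, 105 and 173 with L82-G17. The row counts were thus of similar size with and without arrest while the total of joints rose, and DMSO library 1 alone held none. It gave 0 rows in all Ku70-/- libraries of the SE bait, for which the signal side is the bait side. Losses from that side were 45 bases at the 99th percentile and 54 at most in rows of the SE bait, and their part in the 0 was not tested. Other joints led the other cycling Ku70-/- libraries. That of base 70672548 to base 70672565 led library 3 of both baits (4.81% CE, 4.25% SE). The GTGGAG joint led SE library 1 (3.81%). The joint of base 70672549 to base 70672561 led SE library 2 with 11.3%, but gave 0% and 0.0357% in SE libraries 1 and 3.

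Among inserted bases of 1 to 6 bp, AC led in WT. In arrested WT libraries AC, read on the plus strand, made up 473 of 1546 insertions (30.6%) from the CE bait and 604 of 1385 (43.6%) from the SE bait, and the coding end beside it was whole in 97.3% and 99.8% of these. Next from the CE bait came G with 230 rows, C with 160 and TAC with 109. In Ku70-/- libraries the leading insertions of the CE bait were G (622 of 7117), GT (615), CCAC (570), C (492) and T (489), and of the SE bait C (675 of 6174), CCAC (633), T (572), A (445) and ACAC (414). C, AC and CCAC equal the reverse complement of the first bases of the coding end, as palindromic overhangs do. Palindromic insertions beside a whole coding end made up 12.9% of WT and 0.883% of Ku70-/- joints of the CE bait and 10.4% and 0.967% of the SE bait (exact permutation, adjusted p = 0.00025 for both). They can be counted only where the coding end is whole. That held for 46.1% of WT and 2.75% of Ku70-/- joints with germline order (CE), and for 33.6% and 3.43% (SE). The difference thus includes that in whole coding ends, and the share among whole coding ends was not tested.

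Joint structure in cycling and arrested cells was compared by 3 against 3 libraries, which cannot pass the threshold. In WT, the share with a whole signal end was 82.005%, 93.2% and 90.7% in cycling and 45.5%, 53.7% and 41.03% in DMSO libraries of the CE bait, and 85.6%, 85.1% and 84.5% against 33.5%, 39.6% and 32.7% of the SE bait. The SE shares of DMSO hold reads that run into Jκ2, and without these and reads that lead elsewhere they were 85.6%, 85.1% and 85.1% against 49.1%, 49.01% and 39.4%. MH over 1 bp stood at 21.7%, 6.31% and 31.8% in cycling and 38.8%, 34.0% and 47.1% in DMSO libraries (CE) and at 19.7%, 6.08% and 21.6% against 31.2%, 40.6% and 39.6% (SE). The groups did not overlap in any of these (exact permutation of 3 against 3, p = 0.1 each). Among distinct joints, each counted once, the WT groups of the CE bait overlapped for MH over 1 bp. The shares were then 6.45%, 14.3% and 8.33% in cycling and 5.45%, 7.14% and 12.5% in DMSO libraries. Those of the SE bait still did not overlap, at 3.92%, 3.33% and 3.08% against 8.93%, 8.7% and 11.9%. In Ku70-/-, direct joints stood at 33.8%, 32.1% and 38.2% in cycling and 42.1%, 54.2% and 55.3% in DMSO libraries (CE), and insertions at 13.04%, 14.4% and 12.5% against 3.44%, 3.64% and 3.65%. The SE bait gave the same directions without overlap, with means of 28.6% and 45.9% for direct joints and 15.6% and 3.85% for insertions (exact permutation of 3 against 3, p = 0.1 each). Among distinct joints, each counted once, these Ku70-/- groups overlapped in both baits, through DMSO library 1 only. Direct joints (CE) then stood at 30.4%, 30.7% and 32.6% in cycling and 29.5%, 48.04% and 46.2% in DMSO libraries. Insertions (CE) stood at 26.02%, 26.9% and 23.4% against 41.97%, 21.4% and 22.99%.

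Among arrested Ku70-/- libraries, those with L82-G17 had larger deletions than those with DMSO. The median net deletion was 25, 26 and 26 bp with DMSO, 28, 28 and 28 bp with L67 and 38, 37 and 40 bp with L82-G17 from the CE bait. From the SE bait it was 18, 30 and 30 bp, then 32, 31 and 31 bp, then 40, 38 and 40 bp. Cycling Ku70-/- libraries stood at 41, 41 and 31 bp (CE) and 32, 28 and 33 bp (SE). Both inhibitor groups lay above DMSO without overlap (exact permutation of 3 against 3, p = 0.1 each), with or without DMSO library 1. With each distinct joint counted once the L67 and DMSO groups of the CE bait overlapped (51, 49 and 47 bp against 36, 49 and 48 bp), and the L82-G17 groups still lay above DMSO in both baits. From the SE bait these medians were 45, 44 and 48 bp with L82-G17, 45, 44 and 45 bp with L67 and 24, 43 and 42 bp with DMSO. The prey end lay within 10 bp of the break in 43.6%, 43.2% and 43.3% with DMSO, 40.7%, 40.1% and 41.2% with L67 and 30.1%, 32.8% and 28.2% with L82-G17 (CE). The SE bait did not separate the groups here, with 61.3%, 32.9% and 31.3% with DMSO, 27.2%, 32.1% and 28.3% with L67 and 28.1%, 31.8% and 28.01% with L82-G17. MH over 1 bp was found in 13.8%, 17.4% and 16.7% with DMSO, 18.1%, 17.4% and 17.7% with L67 and 22.0%, 22.6% and 22.3% with L82-G17 (CE). From the SE bait it was found in 44.7%, 18.4% and 17.2% with DMSO, 17.8%, 19.6% and 21.1% with L67 and 22.9%, 21.2% and 21.3% with L82-G17, where DMSO overlapped L67, and overlapped L82-G17 through DMSO library 1 only. Prey ends more than 100 bp away were 0.0432%, 1.31% and 1.13% of joints with DMSO and 3.65%, 3.70% and 4.17% with L82-G17 (CE), while cycling libraries held 11.9%, 9.73% and 9.09%. The SE bait placed L82-G17 above cycling cells, at 5.96%, 5.31% and 5.34% against 3.49%, 4.03% and 3.86%, with 1.40%, 2.76% and 2.42% with DMSO. The window reaches 500 bases before the Jκ1 segment but only 200 after it. Far prey of the SE bait thus cannot lie as far off as those of the CE bait, and these shares are not comparable between baits. All junctions numbered 133143 to 153717 with DMSO and 130546 to 134894 with L82-G17 in Ku70-/- libraries of the CE bait, and 176513 to 192122 and 116039 to 124915 of the SE bait, and the part of depth in these shares was not tested.

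**Figure D4:**
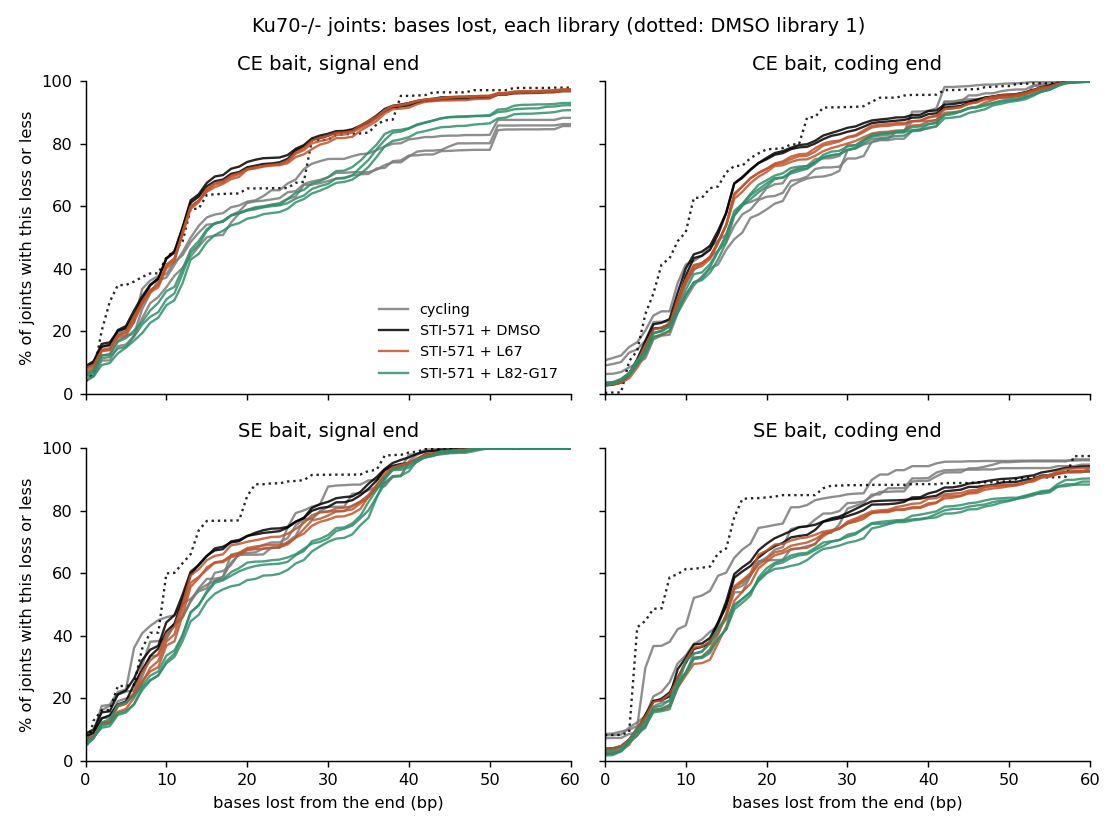
Cumulative share of Ku70-/- joints (y axis, %) by bases lost (x axis, bp) from the signal end (left) and the coding end (right), for the CE bait (top) and the SE bait (bottom). Each line is a library, colored by treatment, and the dotted line is DMSO library 1. Over losses of 11 to 40 bp the L82-G17 lines run below the solid DMSO lines, and the dotted line climbs in a few large steps.

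Among WT libraries of the CE bait, those with L82-G17 had more whole signal ends than those with DMSO, while the SE groups overlapped once reads that run into Jκ2 or elsewhere were left out. The shares stood at 65.8%, 71.1% and 60.1% with L82-G17 and 45.5%, 53.7% and 41.03% with DMSO (CE), and at 59.7%, 48.02% and 61.03% and 33.5%, 39.6% and 32.7% (SE). As listed, the groups did not overlap in either bait (exact permutation of 3 against 3, p = 0.1 each). Without the reads that run into Jκ2 or elsewhere, the SE shares were 68.3%, 48.7% and 64.5% with L82-G17 and 49.1%, 49.01% and 39.4% with DMSO, so that L82-G17 library 2 lay within the range of DMSO. With L67 the shares stood at 58.1%, 34.7% and 50.2% (CE) and 33.2%, 29.4% and 45.4% (SE), over the range of DMSO, and at 49.5%, 51.7% and 61.7% for the SE bait without those reads, above DMSO without overlap (exact permutation of 3 against 3, p = 0.1). The GTG joint, counted as whole at both ends, made up 21.8%, 33.1% and 19.6% of CE rows with L82-G17 and 18.3%, 11.9% and 14.3% with DMSO. Of SE rows it made up 14.8%, 11.7% and 21.9%, and 12.7%, 14.7% and 6.07%. Its part in these shares was not tested. With each distinct joint counted once, the median loss from the WT signal end (CE) was 4.5, 3.5 and 7 bases with L82-G17. With DMSO it was 4, 2 and 4.5 bases. These groups overlapped, so the order of the CE shares above holds for rows with copies kept.

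Nearly every row in the window had been added by the authors, whose own script recovers junctions near the bait that the mapping pipeline drops. Such rows carry a note of how they were classed, and no row outside the window carried one. They made up a mean of 98.5% of WT and 98.0% of Ku70-/- joints of the CE bait in arrested libraries (exact permutation, adjusted p = 0.397), and 98.9% and 96.8% of the SE bait (adjusted p = 0.00323). The SE difference lost its call with each distinct joint counted once and was smaller in the DMSO libraries alone (last section). The rows not added were farther off. In Ku70-/- libraries of the CE bait their median distance was 254 bp with DMSO and 318 bp in cycling cells, where the added rows lay at 12 and 13 bp and reached no farther than 121 bp. In WT libraries of the CE bait there were 21 rows not added with DMSO, none of them in germline order, against 1828 added. By the notes, 51.0% of added Ku70-/- rows of the CE bait were resection only and 45.3% a deletion leading to MH, against 21.5% and 42.9% in WT, where a further 20.0% were insertion only.

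Some rows of the SE bait were not joints to Jκ1. Jκ1 and the next segment, Jκ2 (Igkj2, chr6:70672910-70672952, 354 bp from the break), share a run of 14 bases, in capitals in these stretches of Jκ1 (chr6:70672559-70672588) and Jκ2 (chr6:70672914-70672943).
Jκ1: gacgttcggtggaggcACCAAGCTGGAAAT
Jκ2: cacgttcggaggggggACCAAGCTGGAAAT
Rows listed at base 70672575, where that run starts in Jκ1, with a long insertion before it had reads that match Jκ2. Of 555 such reads in WT DMSO libraries, 544 were identical to the Jκ2 line above. Of the 1678 WT reads of this kind, 1474 (87.8%) also carried the first 16 bases that follow Jκ2. All 1678 rows had been added by the authors.

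These rows made up a large share of the WT window with DMSO, at 284, 155 and 116 rows (31.9%, 23.0% and 18.1% of the window), and with L67, at 242, 439 and 270 (33.1%, 43.6% and 29.7%). With L82-G17 they numbered 78, 9 and 79 (12.5%, 1.42% and 8.57%), below every DMSO library, and in cycling cells 0, 0 and 6. In Ku70-/- libraries of the SE bait, reads that run into Jκ2 numbered 193, 156 and 162 with DMSO, 168, 92 and 138 with L67, 263, 359 and 245 with L82-G17 and 1, 0 and 16 in cycling cells. Of these, only 28.2% were listed at base 70672575, against 99.8% in WT. With L82-G17 the numbers lay below DMSO in WT and above it in Ku70-/- libraries. Because the Ku70-/- window holds many more rows, these made up only 0.333% to 2.26% of it in arrested cells. The CE bait held none. Without them and the few reads that led elsewhere, WT DMSO libraries of the SE bait held 606, 518 and 526 joints, 99.01%, 98.1% and 94.5% of them within 10 bp of the break, close to the values of the CE bait, and 28.5%, 16.99% and 25.1% with insertions. MH over 1 bp then stood at 45.9%, 52.7% and 48.3%, and its difference from Ku70-/- at -19.5 percentage points passed the test (exact permutation, adjusted p = 0.000583). The rise with arrest from the SE bait was then 1.56 on the log2 scale and no longer passed it (exact permutation, adjusted p = 0.0933), and the change with L82-G17 differed between Ku70-/- and WT by -0.90 on the log2 scale (adjusted p = 0.0175), with WT at 0.26. Rows of unchanged length (below) were still counted in both values. In WT they were more numerous with L82-G17 and in cycling cells than with DMSO. In Ku70-/- libraries of the SE bait, 609 rows with DMSO, 1864 with L67, 745 with L82-G17 and 183 in cycling cells were classed as leading elsewhere. The first bases of these reads that left the listed alignment matched outside the other Jκ segments, and 96.4% of the rows were listed at base 70672575. Whether these reads run on into Jκ2 was not tested, so the Ku70-/- numbers above may be too low.

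**Figure D5:**
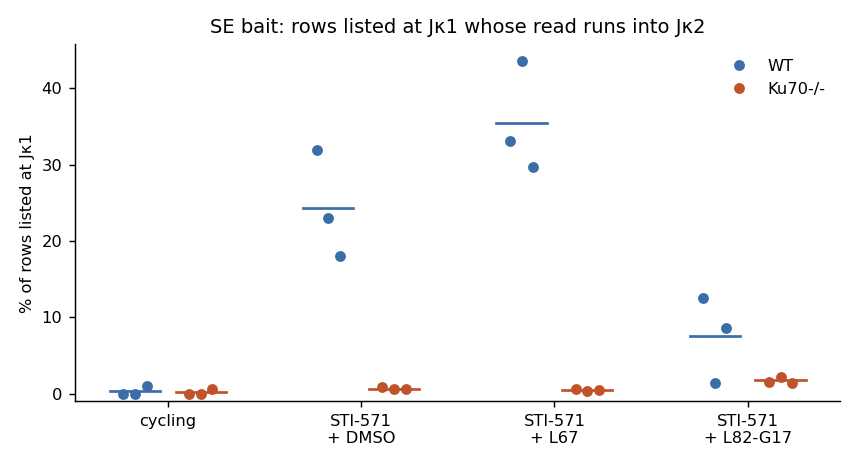
Share of SE bait rows listed at Jκ1 whose read runs into Jκ2 (y axis, %) in each library by treatment. Reads classed as leading elsewhere are not counted. Points are libraries and lines group means. WT libraries with DMSO and L67 stand at 18.1% to 43.6%, and all Ku70-/- libraries at 2.26% or less of a window with many more rows, while the numbers of such rows with DMSO were 116 to 284 in WT and 156 to 193 in Ku70-/-.

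Rows with as many bases inserted as lost, which differ from the uncut sequence by substituted bases alone, were another group of the SE bait. They numbered 93, 88 and 90 in cycling WT libraries (21.5%, 13.1% and 14.5% of rows in the window), 32, 8 and 13 with DMSO, 7, 42 and 34 with L67 and 82, 76 and 95 with L82-G17. Ku70-/- libraries of the SE bait held 64 to 137 each (0.254% to 4.93%), and libraries of the CE bait 0 to 17. Of the cycling WT rows, 37, 40 and 31 differed from the uncut sequence by 1 or 2 bases. Rows of base 70672555 to base 70672564, with 8 coding bases lost and 8 inserted, were listed in all 12 SE libraries of each genotype. No CE library listed them. Whether rows of unchanged length are joints or errors of reading or alignment was not tested. Leaving all such rows out moved the SE difference in MH over 1 bp to -12.4 percentage points (exact permutation, adjusted p = 0.0284).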

How the data were processed

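HTGTS-JoinT-seq read pairs had been demultiplexed, trimmed, taken down to 500000 pairs per library and mapped to mm9 by the authors with TranslocWrapper.pl with duplicates kept, and junctions near the bait had been added by a script of their own. Bowtie2 is named in the submitters' processing notes, without a version. The deposited lists hold 1 junction per line with genome positions and positions on the read, which are not normalized. Every count, percentage and log2 value was computed here from the deposited lists with Python 3.11.15, numpy 2.4.6, pandas 2.3.3 and scipy 1.17.1.

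Positions came from GENCODE vM1 on NCBIM37, the assembly of mm9. The overlap of bait and prey on the read was taken as MH, a gap as insertion. The distance is that of the prey end from the break. Reads were checked for words of 16 bases of the Jκ interval, which gave the reads that lead elsewhere (tolerance 5 bp). Losses from ends, inserted bases and such reads were tested on simulated data.

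Groups followed the labels for all 48 libraries. Genotypes were compared by two-sided exact permutation of libraries within treatment over arrested libraries, treatments by exact permutation within genotype, with Benjamini-Hochberg adjustment over 28 tests and over 14 added tests and a threshold of 0.05. For an alternative, the p of that result alone was replaced before the adjustment. The positions and joints named are the 3 with the highest mean count per genotype and bait with DMSO, and further joints chosen after their values were seen (those found in every library of a genotype or leading a cycling library). Members, lists and tests were chosen with earlier results of these data known. Each count is exact for its list, and limits for a count of 0 cover counting error only, as reads carry no molecular identifiers.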

Additional observations from a re-analysis of the deposited data

How the results depend on the processing

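Of 745 alternative values for 40 results, 659 were classed as the same. Those of tested results kept their direction and side of the threshold. Those of 3 against 3 results, which have no call, moved by less than 1 standard deviation between libraries, and 31 others moved further. Of the rest, 22 reversed direction, 21 lost their call and 12 gained one. All differences are Ku70-/- minus WT or treated minus control, counts on the log2 scale and shares in percentage points, with adjusted p from exact permutation. The cause of a change was not tested, apart from fewer libraries or rows where the alternative removes them. With the DMSO libraries alone, 3 against 3 cannot pass the threshold (exact permutation, adjusted p = 0.133): for the CE bait joints differed by 5.42, joints per Vκ joint by 7.14, germline order by 1.12, within 10 bp by -53.2, direct by 30.4, MH over 1 bp by -24.0 and insertions by -29.7, and for the SE bait by 5.13, 6.30, -31.6 (within 10 bp), 32.5 (direct) and -38.2 (insertions). Rows added by the authors then differed by 0.318 (CE) and -0.577 (SE), both with adjusted p = 0.646.

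With each distinct joint counted once, MH over 1 bp turned to 4.41 (CE, exact permutation, adjusted p = 0.0098) and 3.74 (SE, 0.0055), germline order of the SE bait passed at 2.23 (0.007), added rows of the CE bait passed at -2.57 (0.0268) and those of the SE bait did not at -2.09 (0.0992). The rise with arrest was 0.66 (SE, 0.438), the L82-G17 change within genotype 0.20 (CE, 0.890) and 0.61 (SE, 0.152), its difference between genotypes 0.61 (CE, 0.665), and that of L67 0.66 (SE, 0.810).

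With only rows that the authors did not add, the rise with arrest was 0.35 (CE, 0.925) and 1.42 (SE, 0.213), its difference between genotypes -2.94 (CE, 0.213), the L82-G17 change 0.58 (CE, 0.560) and 0.47 (SE, 0.517), its difference 2.68 (CE, 0.169) and 0.71 (SE, 0.630), the L67 change -0.034 (SE, 0.955), its difference 1.13 (SE, 0.362), MH over 1 bp 14.4 (SE, 0.133) and germline order 53.9 (SE, 0.00269). The shares of the CE bait could not be computed so, as some WT libraries hold no such row. Per junction of the library, the change with arrest turned to -1.76 (CE, 0.00933) and -2.22 (SE, 0.00875), the L67 change to -0.0011 (CE, 0.980), its difference to -0.16 (CE, 0.356), the L82-G17 change to -0.13 (CE, 0.528) and 0.66 (SE, 0.070), and its difference passed at -0.94 (CE, 0.0175).

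With joints read towards the break left out, germline order of the CE bait turned to -0.0679 (0.0535). With only joints within 10 bp, MH over 1 bp of the SE bait was -19.1 (0.0114). Of the alternatives chosen after seeing the data, leaving out reads that lead elsewhere gave -19.5 (0.000583) for that share, 1.56 (0.0933) for the rise with arrest, 0.11 (0.539) for the L67 difference and -0.90 (0.0175) for the L82-G17 difference, all of the SE bait, and leaving out rows of unchanged length gave -12.4 (0.0284) for MH over 1 bp. Leaving out 1 library at a time, MH over 1 bp (SE) ranged from -13.3 to -7.94, the rise with arrest (SE) from 1.66 to 1.82 and the L82-G17 change (SE) from -0.41 to -0.25. No paired analysis was possible because the labels give no replicate numbers. Copies of a molecule cannot be told from separate joints alike, and WT shares rest on 343 to 1006 rows per library.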
